A study of Mus musculus with 9 samples.

Results

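The proteasome genes of the mouse were taken as all genes whose symbol starts with Psma to Psmg and goes on with a digit, among probe sets that the array annotation ties to exactly 1 symbol. This gave 49 genes, read by 103 probe sets, of 18193 genes with such a probe set, and each gene was represented by its brightest probe set over 8 arrays. All 49 passed the filter on dim probe sets. They comprised 8 alpha and 7 constitutive beta subunits of the 20S core, 4 beta subunits of the immunoproteasome and thymoproteasome, and 6 ATPase and 11 non-ATPase subunits of the 19S regulatory particle. The other genes were 3 activators, 1 inhibitor, 7 assembly factors, and 2 genes that matched by name only and encode no subunit, Psmc3ip and Psme3ip1. One further probe set carried the symbols of both Psme2 and Psme2b and was left out.

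The arrays measured RNA from livers of female MRL +/+ mice aged 11 weeks, a strain prone to autoimmunity whose +/+ substrain carries an intact Fas gene. Mice received dichloroacetyl chloride (DCAC) or dichloroacetic anhydride (DCAA), each at 0.2 mmol/kg in 100 µl of corn oil by intraperitoneal injection, 2 times a week for a period of 6 weeks. The last dose preceded collection of the liver by 24 h. Controls received corn oil alone, although their sample labels call them untreated. Each group had 3 mice with 1 array each. Both compounds are acylating agents that carry the dichloroacetyl group, one as an acid chloride and the other as an anhydride. The study compared each compound with corn oil.

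The library labelled control 2 stood apart and was left out of all tests: its signal was 27176 for Kap and 20921 for Umod, both kidney genes, against 262.6 to 518.2 and 8.9 to 143.3 on the other 8 arrays. On it the liver markers Alb and Ttr read 1678 and 22.1, against at least 43741 and 42541 on each of the others. Every control value below is therefore from control 1 and control 3. The arrays also differed in the ratio of signal at the 3' and 5' ends of control transcripts, a measure of how far labelling reached along an RNA. For pyruvate carboxylase it was 3.93 and 3.32 in controls, 2.85 and 3.99 for DCAC 1 and 2, 12.8 for DCAC 3, and 6.43, 8.38 and 10.9 for DCAA 1 to 3. All DCAA arrays thus had a high ratio and both controls a low one, so this ratio and the DCAA treatment cannot be told apart. The submitters describe a Bioanalyzer check of RNA integrity, with degraded samples left out. In whole liver, less RNA per cell and fewer cells of a type cannot be told apart.

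The proteasome is the main protease for proteins that were tagged with ubiquitin. Its barrel-shaped 20S core encloses 3 proteolytic beta subunits and is capped by the 19S regulatory particle, which binds the tagged protein, removes the tag, unfolds the protein with a ring of ATPases and feeds it into the core. Interferon induces alternative catalytic subunits that assemble into immunoproteasomes and shape the peptides shown on MHC class I. When proteasome activity is short, the transcription factor Nfe2l1 raises most subunit genes together, and in the liver the system clears damaged and misfolded proteins.

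No proteasome gene passed the test against corn oil with either compound, or between the compounds. In DCAA livers, however, 37 of 49 genes, or 75.5%, lay below the control mean on the log2 scale, against 50.8% of all probe sets tested, and the median over the 19S genes was -0.25. There the lid subunit gene Psmd7 stood at 1126 ± 140 (SD, n = 3) against 2024 ± 247 (SD, n = 2) in controls. Of the constitutive catalytic genes, Psmb5 and Psmb7 were close to their control levels, with log2 differences of -0.04 and -0.06. Psmb6 was at 0.23, with all DCAA arrays above both controls. In DCAC livers most genes were near the control level (median log2 difference -0.06), but 34 of 49, or 69.4%, lay below it, against 53.8% of all probe sets. Of the 17 genes of the 19S particle, 14 lay below the control mean with DCAC and 12 with DCAA. With DCAC the 19S gene Psmd7 was at 1493 ± 69.6 (SD, n = 3).

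With DCAA, limma called none of the 49 at an adjusted p under 0.05, against 0.0815% of the 24531 probe sets tested, and 9 genes had an unadjusted p under 0.05, against 12.6% of all probe sets. All 9 were lower with DCAA, a direction in which 6.28% of all probe sets had such a p. For 19 genes, or 38.8%, all 3 DCAA arrays lay below both controls, as they did for 15.6% of all probe sets. For 2 genes, or 4.08%, all 3 lay above, against 16.1%; these 2 became 4 without control 3, 8 without DCAA 2 and 4 without DCAA 3, where the share was 26.7%, 22.2% and 21.6%. The median log2 difference was -0.16 over the 49 genes and -0.008 over all probe sets. The median member's 95% interval reached 1.33-fold to either side. Hepatocyte markers stood the other way on these arrays: 9 of 13 were higher on all DCAA arrays than on both controls. Their summed levels were 536353 to 578177 against 423839 and 440543. On DCAC 1 to 3 the sums were 424091, 498887 and 551548, so DCAC 3, with its high 3'/5' ratio, lay within the DCAA range. The part of these markers and of the ratio in the result was not tested.

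**Figure D1:**
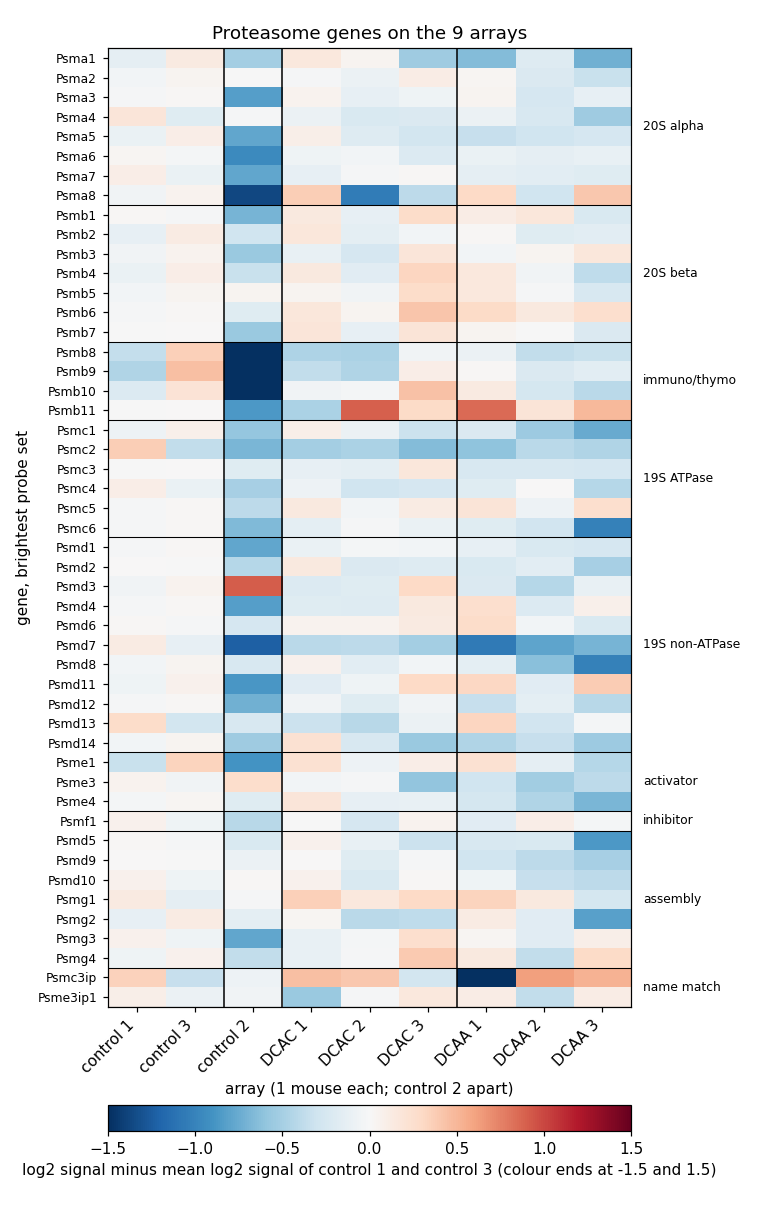
Each row is 1 of the 49 proteasome genes and each column 1 array; colour gives the log2 signal minus the mean of control 1 and control 3, with control 2 apart. Blue cells gather on DCAA 3, the lowest of the 8 arrays for 25 of 49 genes (20.2% of all probe sets), and, on control 2, in the immunoproteasome rows.

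The 19S particle accounted for 11 of the 19 genes that lay lower without overlap, out of its 17 members, or 64.7% against 15.6% of all probe sets, and the median of those 17 was -0.25. Psmd7, a scaffold of the lid that pairs with the deubiquitinase Psmd14, read 2198 and 1849 in controls, 1528, 1538 and 1413 with DCAC, and 969.1, 1169.8 and 1239 with DCAA. The groups formed 3 steps that did not overlap, with control above DCAC and DCAC above DCAA. Its log2 difference with DCAA was -0.85 (SE 0.17, 95% interval -1.23 to -0.47, limma adjusted p = 0.12). With array weights, the 1 alternative of 23 in which any proteasome gene passed, it was -0.84 (adjusted p = 0.0403). That alternative called more of all 24531 probe sets with DCAA, 88 higher and 53 lower, against 17 and 3 in the main fit.

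Psmd8, a further lid subunit, read 4130 and 4344 in controls, 4421, 3797 and 4130 with DCAC, and 3830, 2745 and 2103 with DCAA. DCAA 1 was close to DCAC 2, while DCAA 2 and 3 were well below every other liver array. The log2 difference with DCAA was -0.59 (SE 0.21, limma adjusted p = 0.289). Psmd14, the lid's deubiquitinase, read 3110 and 3267 in controls and 2340, 2517 and 2191 with DCAA. With DCAC it read 3720, 2699 and 2176, so that DCAC 3, the DCAC array with the high 3'/5' ratio, was the lowest of the 8. Its difference with DCAA was -0.44, or 0.10 with a block for the ratio class. The lid genes Psmd3 and Psmd12 also lay lower without overlap, at -0.25 and -0.30, and Psmd6, Psmd11 and Psmd13 did not, at 0.00, 0.17 and 0.00. Of the large base subunits, Psmd1 was at -0.20 and Psmd2 at -0.29, both without overlap. The ubiquitin receptor gene Psmd4 was at 0.04.

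Among the 6 ATPase genes of the ring, 4 lay lower with DCAA without overlap, or 66.7% against 15.6% of all probe sets. Psmc1 read 2382 and 2638 in controls, 2654, 2360 and 2010 with DCAC, and 2149, 1721 and 1488 with DCAA. The values of DCAC 3 and DCAA 1 were close, and the log2 difference with DCAA was -0.51 (SE 0.19, limma adjusted p = 0.311). Psmc6 read 2573 and 2617 in controls, 2344, 2556 and 2413 with DCAC, and 2284, 2127 and 1287 with DCAA. DCAA 3 set much of its difference of -0.49 (SE 0.22, adjusted p = 0.386), while all 3 DCAA arrays lay below all DCAC arrays and both controls. Psmc3 was tight within controls and within DCAA, at 3549 and 3554 in controls and 3000.4, 3018 and 2992 with DCAA, a log2 difference of -0.24. DCAC 1 and 2 lay between, at 3266 and 3204, and DCAC 3 above, at 4012.

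Psmc2 was the ATPase gene with the widest controls, at 10994 and 6621. All 6 treated livers were lower, at 5989, 6157 and 5450 with DCAC and 5636, 6463 and 6263 with DCAA, and the groups of treated mice overlapped. The log2 differences were -0.54 (SE 0.19, limma adjusted p = 0.909) with DCAC and -0.48 (SE 0.19, adjusted p = 0.336) with DCAA. On this brightest probe set they rest largely on control 1, since control 3 was close to the treated arrays. The other probe sets of Psmc2 had all 6 treated livers below both controls. The next brightest read 5157 and 5229 in controls, 4305 to 5033 with DCAC and 3508 to 4787 with DCAA. Its log2 differences were -0.17 with DCAC and -0.38 with DCAA (limma adjusted p = 0.981 and 0.365). The dimmest read 364.7 and 300.8 in controls, 193.0 to 202.4 with DCAC and 230.6 to 241.6 with DCAA. Its differences were -0.75 and -0.49 (adjusted p = 0.967 and 0.534). Psmc4 and Psmc5 overlapped with the controls, at -0.20 and 0.12 with DCAA.

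**Figure D2:**
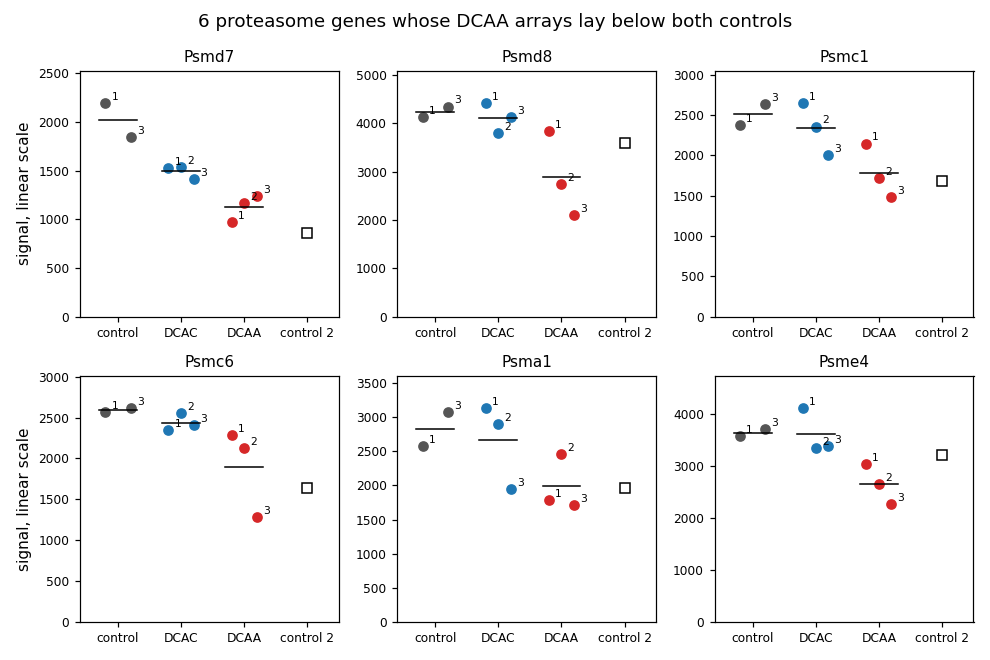
Signal on a linear scale from 0 in single livers (points, numbered by replicate), with group means as lines and control 2 as a square, for 6 genes whose DCAA arrays lay below both controls. DCAC arrays sit near the controls for Psmd8 and Psme4 and between the other groups for Psmd7, and DCAC 3 is the low DCAC point for Psma1 and Psmc1.

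In the 20S core, the alpha subunits, which form the outer rings and the gate, and the constitutive beta subunits differed in their counts. Of the 8 alpha genes, 4 lay lower with DCAA without overlap (median -0.17), and of the 7 constitutive beta genes none did (median -0.04), against 15.6% of all probe sets. That beta median was -0.15 on a scaling to a common median, 0.05 without DCAA 3 and 0.01 without control 3. The difference between the classes was not tested, and it depended on the probe set read. Among second brightest probe sets past the filter, those of Psma1, Psma5 and Psma7 stood at 0.21, -0.13 and 0.35 and overlapped. Those of Psma3 and Psma6 lay lower without overlap, at -0.52 and -0.34. Of the beta genes, that of Psmb4 lay lower without overlap at -0.70, that of Psmb1 higher at 0.62, and that of Psmb3 overlapped at 0.09. The second brightest probe sets of Psma1, Psma3 and Psmb1 were dim, with means over the 8 arrays of 317.8, 252.4 and 361.0. Those of the other genes named here averaged 2157 or more. Psma1 read 2574 and 3077 in controls, 3134, 2902 and 1948 with DCAC, and 1786, 2467 and 1714 with DCAA. The 4 arrays with high 3'/5' ratios were its lowest 4, and the difference with DCAA was -0.52 (SE 0.23, limma adjusted p = 0.376), or 0.11 with a block for the ratio class. Psma5, Psma6 and Psma7 were at -0.30, -0.11 and -0.16. Psma6 varied least of all members over the 8 arrays, with the highest array 1.17-fold above the lowest. Psma8, the testis form of an alpha subunit, was dim, at 80.3 to 221, and overlapped.

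The beta genes included the 1 core gene that stood higher without overlap with both compounds. Psmb6, one of the 3 catalytic subunits, read 3818 and 3940 in controls, 4380, 3992 and 5155 with DCAC, and 4728, 4304 and 4613 with DCAA. All 6 treated arrays were above both controls, DCAC 2 by little, and the log2 differences were 0.21 (SE 0.15, limma adjusted p = 0.978) and 0.23 (SE 0.15, adjusted p = 0.56). A block for the ratio class turned the second to -0.07. Psmb5 read 5141 and 5456 in controls, 5438, 5103 and 6408 with DCAC, and 5911, 5224 and 4467 with DCAA. Psmb7 read 13211 and 13306 in controls, 15092, 12195 and 15126 with DCAC, and 13668, 13236 and 11396 with DCAA. For both genes the treated groups spanned the controls, and DCAC 3 and DCAA 3 were the extremes. The structural genes Psmb1, Psmb2, Psmb3 and Psmb4 also overlapped, with differences between -0.11 and 0.06 for DCAA.

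**Figure D3:**
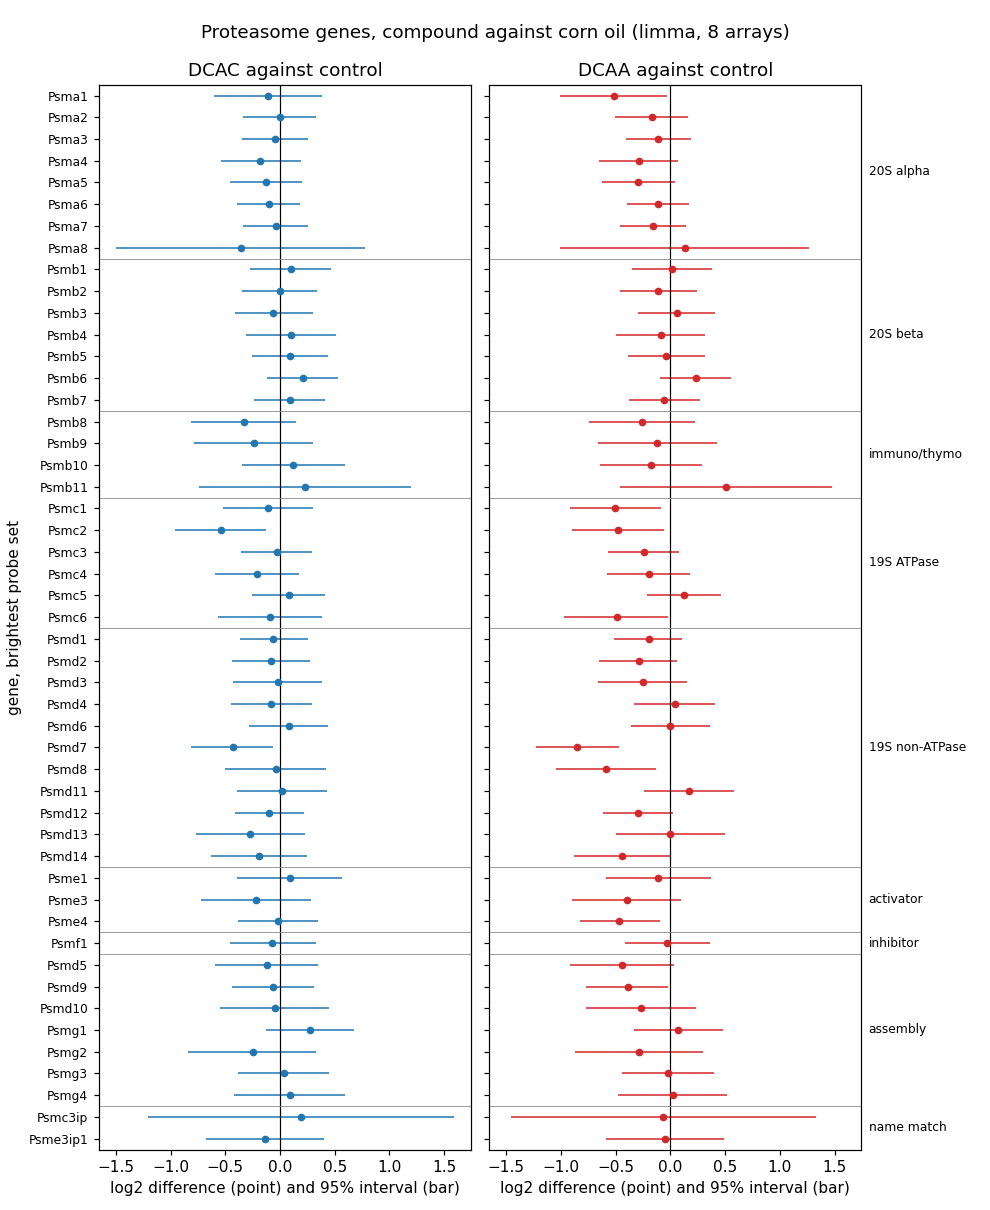
Log2 difference from corn oil (points) with its 95% interval (bars) for the 49 genes by class, from limma on 8 arrays, DCAC on the left and DCAA on the right. With DCAA the 19S rows lie mostly left of 0 and Psmd7 lies farthest, at -0.85, while the constitutive 20S beta rows surround 0.

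With DCAC, none of the 49 genes passed, against 0.0326% of all probe sets, and 2 had an unadjusted p under 0.05 (5.02% of all probe sets), Psmc2 and Psmd7 (limma adjusted p = 0.909 and 0.947). The median was -0.06, against -0.029 over all probe sets, and it was 0.02 on a common median. The share that lay lower without overlap, 6 genes or 12.2%, was near the 12.5% of all probe sets. These were Psma6, Psmc2, Psmc6, Psmd1, Psmd7 and Psmd12. Of these, 5 were in the 19S particle, or 29.4% of its 17 genes, against 12.5% of all probe sets. The 6 became 11 without control 1, 13 without control 3, 18 without DCAC 1 and 13 without DCAC 3, where the share of all probe sets was 19.1% to 27.3%. Higher without overlap were 3 genes, 6.12% against 11.2%: Psmb6, the lid gene Psmd6 at 0.08, and the assembly chaperone gene Psmg1 at 0.27. These 3 became 5 without control 3 and 7 without DCAC 2, at 23.7% and 16.8% of all probe sets. Psmg1 read 2664 and 2213 in controls and 3119, 2713 and 2982 with DCAC.

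The direct comparison asks whether the acid chloride and the anhydride differed at the same molar dose. None of the 49 genes passed, against 0.00408% of all probe sets, and 4 had an unadjusted p under 0.05 (9.28% of all probe sets), all higher with DCAC: Psme4, Psmd8, Psmd7 and Psmc1. The median difference, DCAC minus DCAA, was 0.12, against -0.015 over all probe sets. For 7 genes, or 14.3%, all DCAC arrays lay above all DCAA arrays, against 6.32% of all probe sets, and none lay below, against 7.63%. The latter count was 4 without DCAC 3 (14.7% of all probe sets) and 1 without DCAC 1 (12.7%). It was 3 when DCAA 2 was left out (13.4%) and 2 when DCAA 1 was (16.5%). The 7 were Psma7, Psmc3, Psmc6, Psmd1, Psmd7, Psmd9 and Psme4. The count of 7 was 11 without DCAC 2, 14 without DCAC 3 and 18 without DCAA 1, at 9.13%, 14% and 13.1% of all probe sets, and 16 on a common median, at 13.2%. For Psmd7 the difference was 0.41 (95% interval 0.08 to 0.75, limma adjusted p = 0.484) and for Psmd8 0.55 (0.14 to 0.96, adjusted p = 0.465). For the catalytic genes Psmb5, Psmb6 and Psmb7 the intervals were -0.19 to 0.44, -0.31 to 0.27 and -0.15 to 0.44. They leave room for a difference of up to about that size, so similar action of the compounds was not shown.

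The activators open the core without ubiquitin recognition. Psme4, the large activator known for acting on histones, read 3572 and 3708 in controls, 4112, 3352 and 3379 with DCAC, and 3032, 2654 and 2264 with DCAA. All DCAA arrays lay below the other 5, and the difference from control was -0.47 (SE 0.17, limma adjusted p = 0.289) and that of DCAC minus DCAA 0.45 (95% interval 0.13 to 0.78, adjusted p = 0.465). Psme3, the nuclear activator, was at -0.40 with DCAA without overlap, or 0.16 with a block for the ratio class. Psmf1, an inhibitor of the core, was at -0.03 with DCAA and -0.07 with DCAC.

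Of the 7 assembly factors, Psmd5 and Psmd9, chaperones of the 19S base, lay lower with DCAA without overlap, at -0.44 and -0.39. Psmd9 read 1161 and 1143 in controls, 1152, 1019 and 1142 with DCAC, and 939, 880.5 and 813.8 with DCAA. Its DCAA arrays were below all others (SE 0.17, limma adjusted p = 0.375). Psmd10, the oncoprotein gankyrin, was at -0.27 and Psmg2, of the core chaperones, at -0.29, both overlapping. Psmg1, Psmg3 and Psmg4 were between -0.02 and 0.07. The name matches Psmc3ip and Psme3ip1 were at -0.07 and -0.05, and Psmc3ip spanned 35.9 to 217 over the 8 arrays, a 6.05-fold range.

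The immunoproteasome genes differed more between the controls than between groups. Psmb8 read 1764 and 2901 in controls, 1638, 1632 and 2176 with DCAC, and 2122, 1749 and 1798 with DCAA. Psmb9 read 1301 and 2424 in controls, 1374, 1298 and 1902 with DCAC, and 1802, 1523 and 1597 with DCAA. In both genes the treated livers lay within or next to the span of the controls, with control 3 above all others. Psmb10, the other inducible catalytic subunit, read 1861 and 2459 in controls, 2064, 2101 and 2897 with DCAC, and 2340.4, 1788 and 1619 with DCAA. The log2 differences with DCAA were -0.26 (SE 0.22, limma adjusted p = 0.653), -0.12 (SE 0.25, 0.879) and -0.18 (SE 0.21, 0.773) for Psmb8, Psmb9 and Psmb10. Those with DCAC were -0.33 (SE 0.22, 0.978), -0.24 (SE 0.25, 0.981) and 0.12 (SE 0.21, 0.991). The sign of their median rested on 1 control: with DCAC it was -0.69 without control 1 and 0.21 without control 3, and with DCAA -0.57 and 0.09. Psmb11, the subunit of thymic epithelium, was dim, at 163.9 and 164.4 in controls and 187.0, 230.7 and 296.5 with DCAA, and stood at 0.51 (SE 0.45, limma adjusted p = 0.674).

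Psme1, the interferon-inducible activator subunit, followed the same contrast between the controls, at 4988 and 7937. It read 7394, 5980 and 6760 with DCAC and 7364, 5747 and 4670 with DCAA, and its differences were 0.09 (SE 0.22, limma adjusted p = 0.991) and -0.11 (SE 0.22, adjusted p = 0.868). Control 3 was above control 1 by 1.86-fold for Psmb9, 1.65-fold for Psmb8, 1.59-fold for Psme1 and 1.32-fold for Psmb10. Among the 45 other genes the median ratio was 1.02 and none exceeded 1.5-fold in that direction, against 8.65% of all probe sets. In the other direction, the ratio of control 3 to control 1 was 0.602 for Psmc2, 0.62 for Psmc3ip and 0.685 for Psmd13. Beside Psmb8, Psmb9, Psmb10 and Psme1, 17 of 21 other interferon response genes were over 1.5-fold higher on control 3, with summed levels of 19684 and 35613. So were 12 of 13 Kupffer cell and macrophage markers (12617 and 42533) and 3 of 5 T and NK cell markers (1590 and 2332). The Kupffer gene Clec4f read 1017 and 2779, while hepatocyte markers were alike, at 423839 and 440543. On the treated arrays the summed interferon list was 21635 to 24980 and the Kupffer list 13299 to 21024. The T and NK cell list was 798 to 1201 there, below both controls on all 6 treated arrays. It sums only the 5 of 12 listed genes on the array that passed the filter, Cd8a, Prf1, Gzma, Ccl5 and Nkg7. Cd3e and Cd3g did not pass. The part of these cells in the immunoproteasome levels was not tested.

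**Figure D4:**
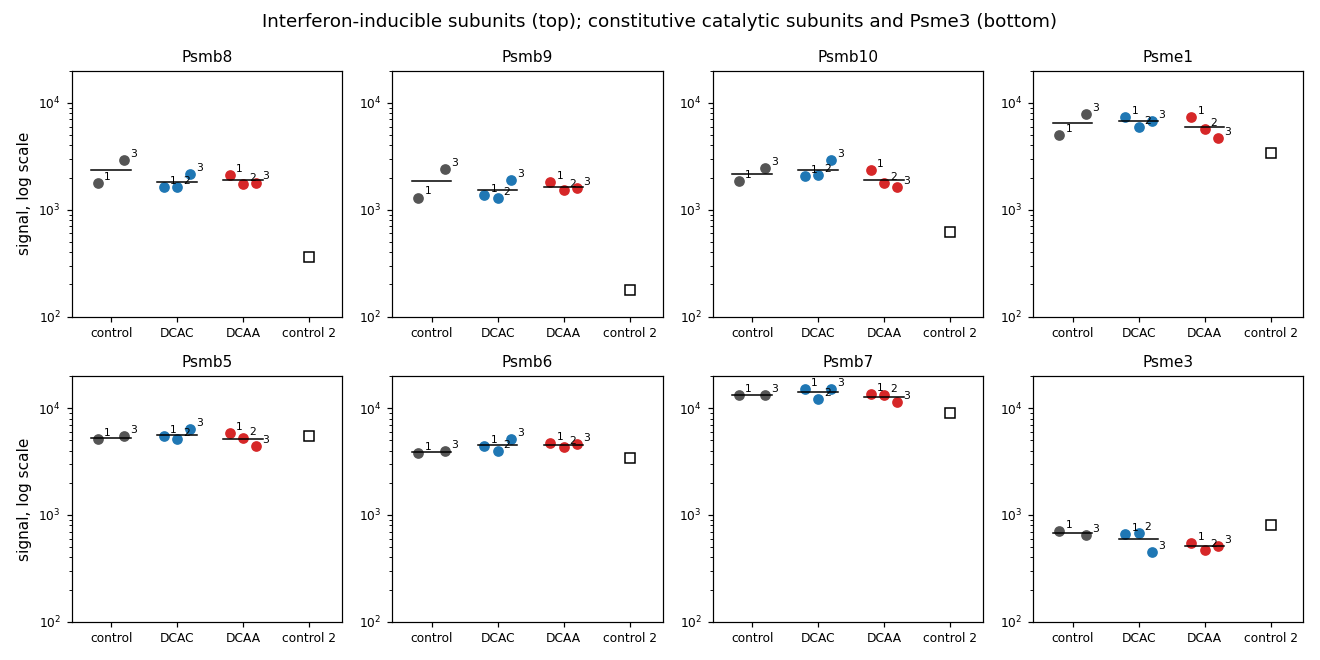
Signal on a log scale in single livers (points, numbered by replicate), with group means as lines and control 2 as a square. Control 3 is above control 1 in all 4 upper panels, control 2 is far below the livers for Psmb8, Psmb9 and Psmb10, and Psmb5, Psmb6 and Psmb7 show nearly equal controls.

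Because the inducible subunits replace constitutive ones at the same place in the core, each pair was also compared within an array. The log2 difference of Psmb8 from Psmb5 was -1.54 and -0.91 in controls, -1.73, -1.64 and -1.56 with DCAC, and -1.48, -1.58 and -1.31 with DCAA. That of Psmb9 from Psmb6 was -1.55 and -0.70 in controls, -1.67, -1.62 and -1.44 with DCAC, and -1.39, -1.50 and -1.53 with DCAA. For both pairs control 1 lay among the treated livers and control 3 above them. That of Psmb10 from Psmb7 was -2.83 and -2.44 in controls, -2.87 to -2.38 with DCAC and -2.89 to -2.55 with DCAA. The treated spread of this pair covered the controls' range. Levels of different probe sets cannot be compared, so only the shift between arrays is informative here.

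Promoters of Psmb5 with Psmb8, Psmb6 with Psmb9, and Psme1 are shown because Psmb8, Psmb9 and Psme1 stood over 1.5-fold higher on control 3 and Psmb5 and Psmb6 did not. Those of Psmb7 and Psmb10 are not shown. The sequences are from RefSeq, GRCm38.p6, 250 bases before to 50 after the start of the gene, 5' to 3' on the gene's strand, with matches to the searched motifs in capitals. Psmb5 is at chr14:54617946-54618245 (minus), Psmb6 at chr11:70525107-70525406 (plus), Psmb8 at chr17:34197945-34198244 (plus), Psmb9 at chr17:34187281-34187580 (minus) and Psme1 at chr14:55578244-55578543 (plus).
Psmb5: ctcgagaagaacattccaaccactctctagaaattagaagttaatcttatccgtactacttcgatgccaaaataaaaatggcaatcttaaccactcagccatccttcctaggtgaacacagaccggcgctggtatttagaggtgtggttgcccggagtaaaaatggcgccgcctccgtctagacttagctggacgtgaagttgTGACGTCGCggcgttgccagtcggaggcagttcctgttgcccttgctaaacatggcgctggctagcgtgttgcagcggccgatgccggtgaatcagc
Psmb6: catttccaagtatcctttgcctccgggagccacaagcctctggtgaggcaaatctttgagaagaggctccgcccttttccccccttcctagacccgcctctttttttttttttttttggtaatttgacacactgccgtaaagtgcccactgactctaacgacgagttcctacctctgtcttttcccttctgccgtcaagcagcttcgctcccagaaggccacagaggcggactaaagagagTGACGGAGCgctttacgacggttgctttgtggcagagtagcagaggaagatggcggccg
Psmb8: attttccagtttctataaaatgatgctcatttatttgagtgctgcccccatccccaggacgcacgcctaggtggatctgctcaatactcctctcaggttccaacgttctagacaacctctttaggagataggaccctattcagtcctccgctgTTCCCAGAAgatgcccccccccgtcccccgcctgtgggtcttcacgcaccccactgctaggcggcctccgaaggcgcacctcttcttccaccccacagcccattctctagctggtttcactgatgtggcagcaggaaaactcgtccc
Psmb9: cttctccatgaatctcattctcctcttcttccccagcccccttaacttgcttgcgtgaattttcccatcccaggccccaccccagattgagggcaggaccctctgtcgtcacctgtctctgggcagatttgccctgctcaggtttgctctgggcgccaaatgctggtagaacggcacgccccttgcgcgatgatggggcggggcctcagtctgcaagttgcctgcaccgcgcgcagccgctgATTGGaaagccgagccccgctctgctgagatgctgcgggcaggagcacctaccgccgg
Psme1: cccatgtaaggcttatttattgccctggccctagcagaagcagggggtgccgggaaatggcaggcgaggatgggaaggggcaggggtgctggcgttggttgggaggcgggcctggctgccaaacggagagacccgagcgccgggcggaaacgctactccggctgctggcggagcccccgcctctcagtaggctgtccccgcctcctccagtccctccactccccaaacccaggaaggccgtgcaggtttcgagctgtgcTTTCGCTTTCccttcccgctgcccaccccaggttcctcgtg
The constitutive pair Psmb5 and Psmb6 each held the core of the antioxidant response element, TGACNNNGC, the motif that Nfe2l1 and Nfe2l2 read, starting 47 and 9 bases before the gene's start. Psmb8 held a STAT palindrome, TTCNNNGAA, 97 bases before the start, Psmb9 an NF-Y box, CCAAT, on the other strand, and Psme1 the core of the interferon-stimulated response element, GAAANNGAAA, on the other strand. No matches overlapped in these windows. Psmb9 lies next to the peptide transporter gene Tap1 on chromosome 17, and Psmb8 lies between Tap1 and Tap2.

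Over 44 promoters of 41 members, with chromosome 18 left out, the antioxidant core was present in 6, or 13.6%, against 12.4% of all 32851 promoters of the same length. These belonged to Psmb5, Psmb6, Psmc6, Psmd12, Psmd9 and Psme4. The NF-Y box was present in 16, or 36.4% (37.4% of all), the STAT palindrome in 3, or 6.82% (8.3%), and the interferon-stimulated core in 5, or 11.4% (3.44%). Both strands were searched, and a match is a description of letters. The holders of the antioxidant core stood between -0.49 (Psmc6) and 0.23 (Psmb6) with DCAA. Those of the interferon-stimulated core were Psmb3, Psmd4, Psmd9, Psme1 and Psmg4, of which Psme1 alone stood over 1.5-fold higher on control 3.

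The 3'/5' ratio was set beside each gene. For 8 of the 49, all 4 arrays with high ratios lay below all 4 with low ratios, against 5.41% of all probe sets, and for none did they lie above, against 4.99%. These were Psma1, Psma5, Psma6, Psmc1, Psmd5, Psmd7, Psmd14 and Psme3; since the high-ratio arrays hold all DCAA livers and no control, such genes are lower with DCAA by definition. DCAC 3, given the other compound, offers a view within 1 treatment. It lay below both DCAC 1 and DCAC 2 for 9 of the 19 and for 1 of the 30 other genes, against 39.9% of all probe sets. Its median log2 difference from the mean of those arrays was -0.14 over the 19 and 0.17 over the 30. A block for the ratio class gave a median of -0.24 with DCAA over the 49 genes, and that correction rests on DCAC 3 alone. With this block none of the 49 passed with DCAA, and neither did any other of the 24531 probe sets. Over the 19 genes the median went from -0.40 to -0.25 and over the other 30 from -0.04 to -0.23. Since the 19 were picked by their low DCAA values, the first medians differ by that choice. The change in them is no test of the ratio. Of the 19, 4 turned to above 0: Psma1 (0.11), Psma6 (0.04), Psmd14 (0.10) and Psme3 (0.16). Psmc1 went from -0.51 to -0.19, Psmd7 from -0.85 to -0.73 and Psmd8 from -0.59 to -0.61.

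Probe sets of 1 gene did not always give the same picture. Of 82 member probe sets that passed the filter, 14, or 17.1%, separated the arrays with all high-ratio arrays below, and 2 with all above. The brightest Psmb4 probe set read 6220 and 7181 in controls, 7399, 5960.0 and 8356 with DCAC, and 7437, 6444 and 5143 with DCAA. The second brightest read 6056 and 6843 in controls, 6977, 6238 and 5134 with DCAC, and 4199, 4379 and 3380 with DCAA. Only the second separated the arrays by ratio, and its log2 difference with DCAA was -0.70 (SE 0.17, limma adjusted p = 0.168) against -0.09 for the first.

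Psmd11, a lid gene, showed both directions. Its brightest probe set stood at 0.17 with DCAA, another at -0.51 (SE 0.15, limma adjusted p = 0.225) and a further one at 0.34 (SE 0.17, adjusted p = 0.443). The one at -0.51 was lower on all high-ratio arrays and the one at 0.34 higher on all of them. Psmd4 stood at 0.04 and -0.63, and Psme4 at -0.47, -0.97 and -0.75, by its 3 probe sets. The 21 genes with several probe sets past the filter included 9 whose probe sets had opposite signs with DCAA, and differences of up to 0.85 between probe sets of a gene. Of these 9, 4 had a probe set that separated the arrays by ratio and 5 had none: Psmg2, Psmc6, Psmd13, Psma7 and Psmd6. The opposite sign rested on a dim probe set for Psma1, Psma5 and Psmg2, with means over the 8 arrays of 317.8, 177.6 and 189.7. Psmd6 counted with a brightest probe set at 0.00. Psmd7, Psmd8 and Psmc1 had 1 such probe set each, so their values have no second reading.

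**Figure D5:**
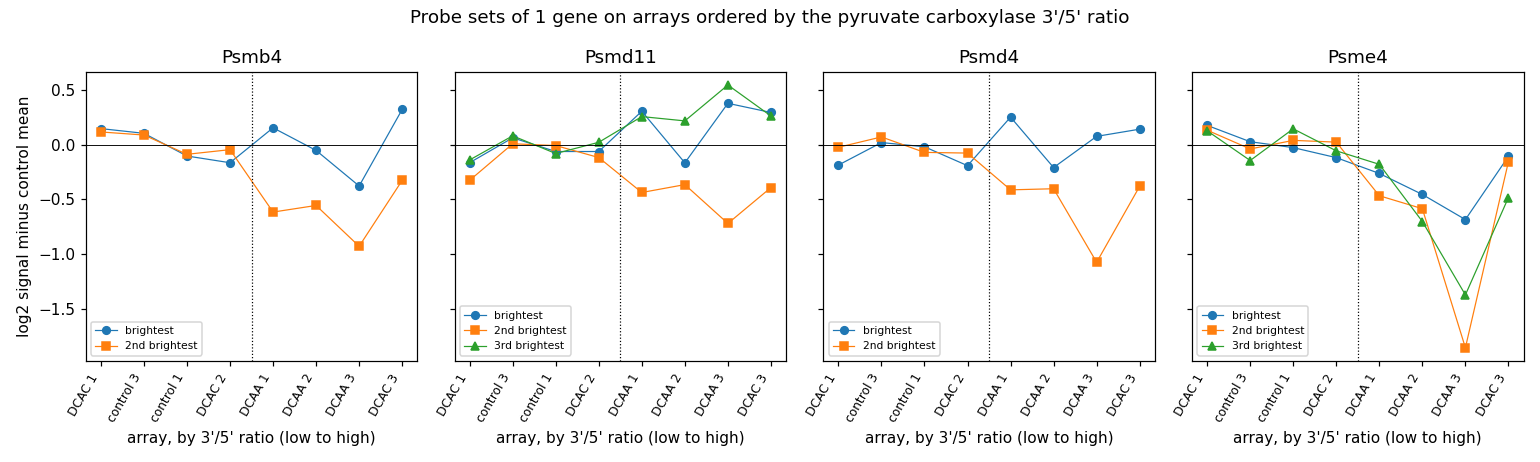
Log2 signal minus the mean of control 1 and control 3 for probe sets of 4 genes, on 8 arrays in the order of their pyruvate carboxylase 3'/5' ratio; the dotted line parts the 4 arrays with low from the 4 with high ratios. Single probe sets of Psmb4, Psmd11 and Psmd4 step down at the line while the brightest of the same gene does not.

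On control 2, which carries kidney genes, 27 of 49 proteasome genes were below all 8 liver arrays, 55.1% against 23.8% of all probe sets. The inducible catalytic genes were lowest relative to the livers: Psmb9 read 177.3 against 1298 to 2424, Psmb8 363.1 against 1632 to 2901, and Psmb10 614.1 against 1619 to 2897. Psmd7 read 859.8, below its DCAA values. Within the array, Psmb8 minus Psmb5 was -3.91, Psmb9 minus Psmb6 -4.27 and Psmb10 minus Psmb7 -3.88, or 6.42-fold, 8.83-fold and 2.38-fold below the mean of the other controls. Above all livers were 2 genes, or 4.08% against 24.8%: Psmd3 at 4138 and Psme3 at 812.1. This is 1 array, and its label gives the tissue as liver.

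Among genes that work with the proteasome but carry other symbols, none of the 15 passed with DCAA. Their median was -0.25, 12 lay below 0 and 7 lay lower without overlap, against 50.8% and 15.6% of all probe sets. They included the segregase Vcp at -0.37 and its cofactors Nploc4 at -0.95 (SE 0.24, limma adjusted p = 0.186) and Ufd1 at -0.70 (SE 0.28, adjusted p = 0.345). For 3 of the 15, Ufd1 among them, all arrays with high 3'/5' ratios lay below all with low ones, against 5.41% of all probe sets. Nploc4 read 1872 and 1718 in controls, 1887, 1534 and 1535 with DCAC, and 1019, 1219 and 647.9 with DCAA, with all DCAA arrays below all others. All 8 genes of the ubiquitin conjugation list lay below 0 with DCAA (median -0.29, none passing), and 2 did so without overlap, against 15.6% of all probe sets. With DCAC the medians of these lists were -0.14 and -0.16, and no gene passed. Of the 15 partner genes, 11 lay below 0 with DCAC, against 53.8% of all probe sets. Without overlap 6 of them lay lower and 2 higher, against 12.5% and 11.2% of all probe sets. In the ubiquitin conjugation list 6 of 8 lay below 0 with DCAC, none of them without overlap.

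Regulators of proteasome genes had a median near 0. Of 14, none passed with DCAA and the median was 0.08, or -0.19 to 0.23 across the alternatives. Without overlap 5 lay higher and 1 lower, against 16.1% and 15.6% of all probe sets. Nfe2l1, which drives subunit genes when proteasome activity is short, read 1256 and 1182 in controls, 1367, 1330.0 and 1314 with DCAC, and 1524, 1489 and 1303 with DCAA. All 6 treated arrays were above both controls. Irf2, an antagonist of the interferon factor Irf1, read 663 and 587.2 in controls, 704.2, 911 and 743.3 with DCAC, and 1430, 1115 and 1570.0 with DCAA. Its DCAA arrays were above all others, at 1.12 (SE 0.21, limma adjusted p = 0.0909), and Irf1 was at 0.41 (SE 0.16, adjusted p = 0.323). The 13 targets of Nfe2l2 had a median of -0.03 with DCAA (-0.23 to -0.01 across the alternatives). Of these targets, 5 lay lower and 3 higher without overlap, against 15.6% and 16.1% of all probe sets. The 5 ubiquitin ligases had a median of 0.05 (-0.07 to 0.16). In the ligase list Syvn1, of protein quality control in the endoplasmic reticulum, was at -0.91 with DCAA and -0.87 with DCAC (limma adjusted p = 0.192 and 0.648), with controls of 7048 and 3823.

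MHC class I genes, which present the peptides that proteasomes cut, had a median of -0.16 with DCAA over 11 genes (-0.46 to 0.28 across the alternatives), and none passed. Tap1, beside Psmb9, read 398.7 and 687.2 in controls, 464.3, 513.7 and 475.4 with DCAC, and 272.8, 313 and 227.7 with DCAA. Its DCAA arrays were below all others, at -0.96 (SE 0.28, limma adjusted p = 0.212), while Psmb9 overlapped. H2-D1, a class I heavy chain, was at -0.61 (SE 0.16, limma adjusted p = 0.19). For 2 of the 11 genes, H2-D1 among them, all arrays with high 3'/5' ratios lay below all with low ones, against 5.41% of all probe sets. Calr, the chaperone calreticulin, stood higher on all DCAA arrays than on both controls, at 0.42 (SE 0.14, limma adjusted p = 0.269).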

How the data were processed

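Liver RNA of 9 mice was hybridised to Affymetrix mouse arrays. The deposited values are linear intensity signals of GCOS, per the submitters' processing notes and the values, and the authors scaled each array to a mean of 500 with 2% trimmed at each end, a property tested on the file. The members and gene lists were chosen with earlier results of these data known. From the deposited intensities, signals under the 25th percentile of an array were raised to it followed by a log2 transformation. A filter kept the 24531 of 45037 probe sets whose signal exceeded the median of its array in 3 or more of 8 cases. These were fitted with limma 3.58.1 in R 4.3.3 for 3 groups in 1 model, with an intensity trend and Benjamini-Hochberg adjustment over all kept, 2-sided, at 0.05. The test was checked on simulated data. Genes described array by array were the catalytic subunits, Psme1, Psmd7, and up to 10 per comparison whose groups did not overlap, in order of unadjusted p. Examples from the gene lists were chosen after their values were seen. Groups come from the sample titles and each array is 1 mouse, so the number of arrays limits the precision. Alternatives covered scaling, floor, filter, probe set choice, variance model, blocks and each array left out. Protein sequences were not analysed here. Replicate numbers did not pair the arrays: same-numbered deviations correlated at -0.0408 to 0.0275.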

Additional observations from a re-analysis of the deposited data

Results flagged for a closer look

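Control 2, the library with kidney genes that no test used, was above all 8 other arrays for 2 proteasome genes. Psmd3, of the 19S lid, read 4138.3 there against 1632 to 2716 on the others. Psme3, the nuclear activator, read 812.1 against 449.5 to 703.5. Each value is from 1 array and was not tested.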

How the results depend on the processing

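The results rest on 2 control and 3 treated livers per comparison, and the median interval of a gene reached 1.33-fold to either side with DCAA. No proteasome gene passed in any comparison under 22 of 23 alternatives. In some of these no probe set at all passed with DCAA: with all 9 arrays, without the intensity trend and with the ratio block. With array weights 1 proteasome gene passed with DCAA, Psmd7. There 88 of all probe sets were called higher and 53 lower with DCAA, against 17 and 3 in the main fit. With all 9 arrays the median over the 49 genes was 0.13 with DCAC and -0.01 with DCAA, and the genes lower without overlap with DCAA were 5 (9.56% of all probe sets). On a common median, where all probe sets shifted by -0.12 and 0.19, the medians were -0.28 with DCAA and 0.31 for DCAC minus DCAA. Leaving out 1 array gave medians of -0.23 to -0.11 with DCAA, -0.08 to -0.01 with DCAC and 0.07 to 0.19 for DCAC minus DCAA, and 19 to 27 genes lower without overlap with DCAA, where the share of all probe sets was 21.8% to 26.5% after 15.6%. The replicate block gave medians of -0.14, -0.03 and 0.12 and changed no call; same-numbered arrays shared only a number, with correlations of -0.0408 to 0.0275 beside -0.0664 to 0.0736 for other pairs. Causes of these shifts were not tested.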
